A study of Oryza sativa with 12 samples.

Results

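The comparison described here is that of *ntl3-1* with wild type (WT) rice seedlings after heat stress at 45 ºC. It holds the 6 libraries labelled as heat-treated, 3 of WT and 3 of *ntl3-1*, out of 12 in the series. WT was the cultivar Nipponbare, and *ntl3-1* is a single line made in that background by CRISPR-Cas9 editing of OsNTL3, whose product is predicted to be cut short. All seedlings were 8 days old after germination, and RNA was taken after 3 h of heat stress at 45 ºC or after the same time at 29 ºC. The groups were chosen by their labels and by no measured value, and the 6 libraries of the same genotypes at 29 ºC are used here to show which differences were also present without heat stress. The labels name the edited gene and the heat treatment, while the allele, the temperatures and the hours come from the methods of the study. Nothing says how many seedlings went into a library, or that replicates came from separate cultures, so the p-values below measure the spread between these libraries. No second edited line is among the 12 libraries, so an effect of the edit and any other difference carried by this line cannot be told apart.

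OsNTL3 is a NAC transcription factor of a kind that is kept at a membrane by a C-terminal transmembrane segment and moves to the nucleus under stress. Heat unfolds proteins throughout the plant cell. In the cytosol, heat shock factors switch on the genes of heat shock proteins, which hold and refold other proteins. In the endoplasmic reticulum (ER), the unfolded protein response raises folding helpers such as the BiP chaperones, calreticulin and protein disulfide isomerase, and OsbZIP74 is a transcription factor of that response. The study asked which heat-responsive genes depend on OsNTL3.

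The deposited unit is FPKM, which divides the fragments of a transcript by transcript length and by library size, and the table lists 55986 genes. The 31681 genes with a value above 0 in 3 or more of the 12 libraries were tested. Differences are given as *ntl3-1* minus WT on the scale log2(FPKM + 0.1), which understates the change of genes with low FPKM. The test was that of limma, with Benjamini-Hochberg adjustment of the p-values across the 31681 genes. A gene is called higher or lower where its adjusted p does not exceed 0.05 and its log2 difference is 1 or more in size, which 278 genes (0.877%) met as higher and 81 (0.256%) as lower at 45 ºC. Unless another tool is named, every adjusted p below comes from this fit. An unadjusted p of 0.05 or less was met by 4446 of the 31681 genes tested. The counts of group members at an unadjusted p under 0.05 are to be read beside that number. The 6 libraries summed to 1153023 to 1369236 FPKM, held 27884 to 28851 genes above 0, and drew 24% to 28% of their FPKM from the 20 most abundant genes. Read counts were not used here, so the depth of each library is unknown. The most common ratio of low FPKM values to those of the first heated WT library lay between 0.901 and 1.13. It is only an indirect estimate of how the FPKM worth of 1 read compared between libraries. For the 17004 genes that exceeded 1 FPKM throughout, the median difference was -0.04 with a standard deviation (SD) of 0.30, so the typical gene stood at nearly the same level in both genotypes. The labelled tissue is the seedling, and the 4 genes described as parts of photosynthesis, which mark green shoot, had a median level of 22.4 FPKM. Their median log2 difference was 0.68, from -0.25 to 0.94, and 0 of them passed the test (limma, 2 at an unadjusted p under 0.05).

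The transcript of the edited gene itself was lower in *ntl3-1*. OsNTL3 (LOC_Os01g15640, on chromosome 1) reached 57.5, 66.3 and 87.5 FPKM in heated WT seedlings against 28.7, 28.4 and 34.1 FPKM in heated *ntl3-1* seedlings. The genotypes did not overlap, and the means were 70.4 ± 15.4 (SD, n = 3) and 30.4 ± 3.23 FPKM. The log2 difference was -1.19 (standard error (SE) 0.17, limma adjusted p = 0.00439). At 29 ºC OsNTL3 also stood lower, at 18.3, 21.8 and 20.5 FPKM in WT and at 13.9, 10.3 and 14.1 FPKM in *ntl3-1*. The log2 difference there was -0.67 (SE 0.17, limma adjusted p = 0.0663), which was not called. The difference at 45 ºC minus that at 29 ºC was -0.52 (SE 0.24, limma adjusted p = 0.656). Edited and unedited transcripts both add to FPKM, so this lower level does not measure the edit. The call was lost when only the 6 libraries at 45 ºC were fitted (limma adjusted p = 0.107), and it held in the other 20 alternatives.

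OsbZIP74 (LOC_Os06g41770, on chromosome 6), the regulator of the ER response, was lower in heat-stressed *ntl3-1* seedlings by a smaller amount. Its level was 170, 219 and 234 FPKM in WT and 116, 120 and 130 FPKM in *ntl3-1* at 45 ºC. The genotypes did not overlap, with means of 208 ± 32.9 and 122 ± 7.03 FPKM (SD, n = 3). The log2 difference of -0.76 (SE 0.11, limma adjusted p = 0.00472) passed the adjusted p in the main fit and in 20 of 21 alternatives but did not reach the fold threshold. At 29 ºC the gene stood at 14.6, 16.2 and 15.5 FPKM in WT and at 18.1, 17.8 and 18.4 FPKM in *ntl3-1*, a log2 difference of 0.23 (SE 0.11, limma adjusted p = 0.391). The difference between the temperatures, the interaction, was -0.98 (SE 0.15, limma adjusted p = 0.0351), and 7 of 20 alternatives kept its adjusted p at or below 0.05. OsbZIP17 (LOC_Os05g34050) and OsbZIP16 (LOC_Os07g44950), also transcription factors of the bZIP family, stood at log2 differences of -0.05 (SE 0.14) and -0.09 (SE 0.17), with overlapping libraries.

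The ER folding genes did not pass the test. Of 7 measured, which include Sec61 beta, a subunit of the channel through which proteins enter the ER, 0 were called, with 1 at an unadjusted p under 0.05 in limma. All 7 lay below 0, from -1.09 to -0.01, with a median of -0.35 against -0.01 over all genes tested. The sign was not stable for 3 of them. With single libraries left out, BiP1 (LOC_Os02g02410) reached 0.18, LOC_Os09g27830 0.11 and LOC_Os01g67054 0.02, and BiP1 was also 0.02 after median-of-ratios rescaling. BiP1, an abundant chaperone of the ER lumen, was measured at 750, 926 and 1234 FPKM in WT and at 939, 920 and 976 FPKM in *ntl3-1*, so the 3 *ntl3-1* libraries fell within the spread of WT. Its log2 difference was -0.01 (SE 0.17, limma adjusted p = 1). BiP4 (LOC_Os05g35400), a low-abundance relative, was measured at 2.85, 2.22 and 1.84 FPKM in WT and at 1.46, 0.639 and 1.10 FPKM in *ntl3-1*. These libraries did not overlap, and the log2 difference of -1.09 (SE 0.30) had an unadjusted p of 0.00411 and an adjusted p of 0.122 in limma. BiP2 (LOC_Os03g50250) stood at 36.6 to 52.3 FPKM in WT and at 24.3 to 38.4 FPKM in *ntl3-1*, with overlap. The calreticulin genes LOC_Os03g61670 and LOC_Os01g67054, whose products bind calcium and glycoproteins in the ER, had log2 differences of -0.50 (SE 0.40) and -0.27 (SE 0.25). For both, the third *ntl3-1* library was the lowest of the 6, at 19.8 and 235 FPKM. The protein disulfide isomerase gene LOC_Os09g27830, which forms disulfide bonds in proteins entering the secretory pathway, stood at -0.06 (SE 0.15).

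**Figure D1:**
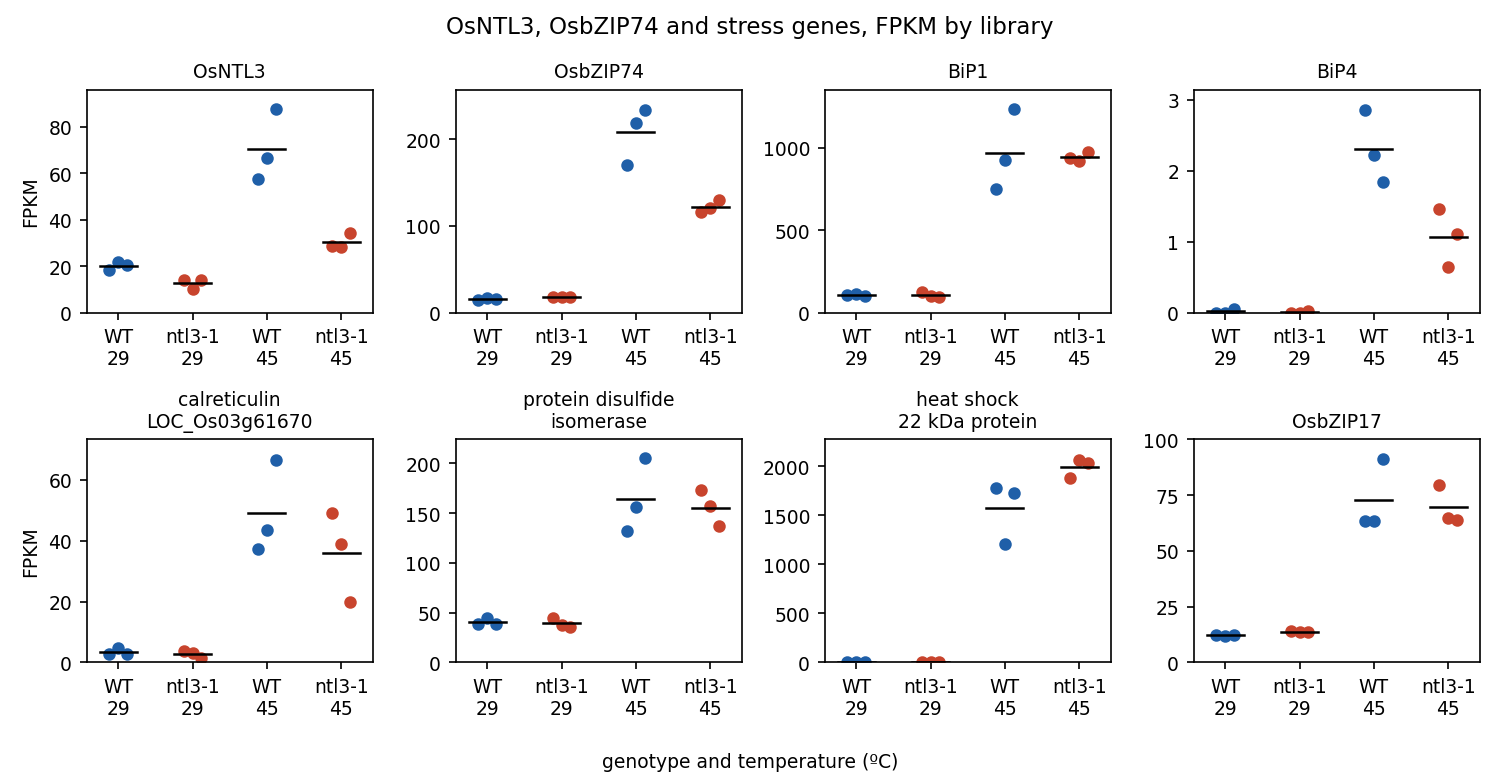
FPKM (y axis, from 0) of OsNTL3, OsbZIP74, 4 ER folding genes, a heat shock protein gene and OsbZIP17 in each library, by genotype and temperature (x axis). Points are libraries and bars are means of 3, with WT in blue and *ntl3-1* in red. At 45 ºC the genotypes separate for OsNTL3 (28.4 to 34.1 against 57.5 to 87.5) and OsbZIP74 (116 to 130 against 170 to 234) and overlap for BiP1.

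The wider chaperone group differed little between the genotypes. Its 38 described genes (small heat shock proteins, DnaK, ClpB, chaperonin, GrpE and DnaJ proteins of several compartments, BiP2 included) had a median level of 613 FPKM, with 4 members below 10 FPKM, and held 0 called genes, with 1 at an unadjusted p under 0.05 in limma. Their log2 differences ranged only from -0.51 to 0.36, with a median of -0.07. The gene of the heat shock 22 kDa protein (LOC_Os02g52150), a small heat shock protein, stood at 1776, 1211 and 1727 FPKM in WT and at 1883, 2065 and 2033 FPKM in *ntl3-1*. Every *ntl3-1* library was above every WT library, and the log2 difference of 0.36 (SE 0.19) did not pass the test (limma adjusted p = 0.449). The 4 heat shock factors with a description had log2 differences of 0.27 to 0.55, and 0 of them passed (limma, 0 also at an unadjusted p under 0.05). The most abundant of these factors, LOC_Os06g36930, singled out after its values were seen, averaged 928 FPKM in WT and 1233 FPKM in *ntl3-1*.

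These groups were read from product descriptions in a supplement of the study, of which only a part was used here. It lists genes that the study itself called heat-responsive from these libraries, so the groups are not independent of the data. Descriptions that say more than that a protein is predicted were at hand for 2016 tested genes, of which 20 (0.992%) were higher and 16 (0.794%) were lower at 45 ºC. The corresponding shares over all 31681 genes were 0.877% higher and 0.256% lower.

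Among other transcription factors, 18 of 20 WRKY genes lay above 0, with a median log2 difference of 0.52 at 45 ºC, and 0 were called (limma, 6 higher and 1 lower at an unadjusted p under 0.05). WRKY factors are best known from defence and stress responses. At 29 ºC their median was 1.32, and 9 of the 20 were called higher and 1 lower there, where 566 (1.79%) and 64 (0.202%) of all genes tested were called. OsWRKY71 (LOC_Os02g08440) averaged 57.3 FPKM in WT and 123 FPKM in *ntl3-1* at 45 ºC, a log2 difference of 1.09 (limma adjusted p = 0.126), beside 1.74 at 29 ºC. OsWRKY45 (LOC_Os05g25770) averaged 30.1 and 33.8 FPKM at 45 ºC, a log2 difference of 0.20, beside 2.17 at 29 ºC. These WRKY genes were chosen after their values were seen. Both genes described with a ZIM domain, of a family that represses jasmonate responses, were called at 29 ºC, with a median of 1.79. At 45 ºC their median was 0.84 and 0 were called (limma, both at an unadjusted p under 0.05). Members of this family without a description in the part used here were not counted. The difference between the temperatures, tested as an interaction, passed for 2 of the 20 WRKY genes and 0 of the ZIM domain genes (limma, adjusted p alone), where it was above 0 for 29 (0.0915%) and below 0 for 47 (0.148%) of all genes tested.

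Of the 14 NAC genes with a description or named by the study, OsNTL3 was the only one called at 45 ºC, and the group median was 0.14. The NAC gene LOC_Os05g34830 stood at 69.4 to 110 FPKM in WT and at 79.1 to 122 FPKM in *ntl3-1*, a log2 difference of 0.30 (SE 0.26). Of the 30 MYB genes 1 was lower. In the AP2 and C2H2 zinc finger groups (11 and 14 genes) 0 were called (limma, 4 in each group at an unadjusted p under 0.05). The AP2 gene LOC_Os03g08460 stood at -0.66 (SE 0.28, limma adjusted p = 0.326) and the C2H2 gene LOC_Os05g02390 at -1.11 (SE 0.41, limma adjusted p = 0.263), and for both the libraries overlapped. The C2H2 gene LOC_Os01g62190 stood at -0.02 (SE 0.40). The ethylene-insensitive 3 gene LOC_Os07g48630, a factor of ethylene signalling, stood at 0.23 (SE 0.16).

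The described calcium sensor and protein phosphatase 2C genes stayed below the thresholds. Of 27 genes whose description names calmodulin or an EF hand, 10 of which are protein kinases of the CAMK class, 0 were called (limma, 7 at an unadjusted p under 0.05). OsCML22 (LOC_Os04g41540), a calmodulin-like calcium sensor, passed the adjusted p alone, with means of 34.4 FPKM in WT and 56.5 FPKM in *ntl3-1* (0.71, limma adjusted p = 0.00498), and its difference at 29 ºC was 0.72. It was also chosen after its values were seen. The calcium sensor LOC_Os03g53200 stood at -0.29 (SE 0.29), with the third WT library at 288 FPKM and the other 5 libraries at 114 to 195 FPKM. The 12 protein phosphatases 2C, which act in abscisic acid signalling among other pathways, held 0 called genes (limma, 4 at an unadjusted p under 0.05). In the 15 peroxidases and the 30 cell wall genes 0 were called as well (limma, 2 and 3 at an unadjusted p under 0.05). The genes that the study used as negative controls for promoter binding, LOC_Os12g02210 and LOC_Os01g22490, had log2 differences of 0.05 (SE 0.44) and -0.08 (SE 0.09).

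**Figure D2:**
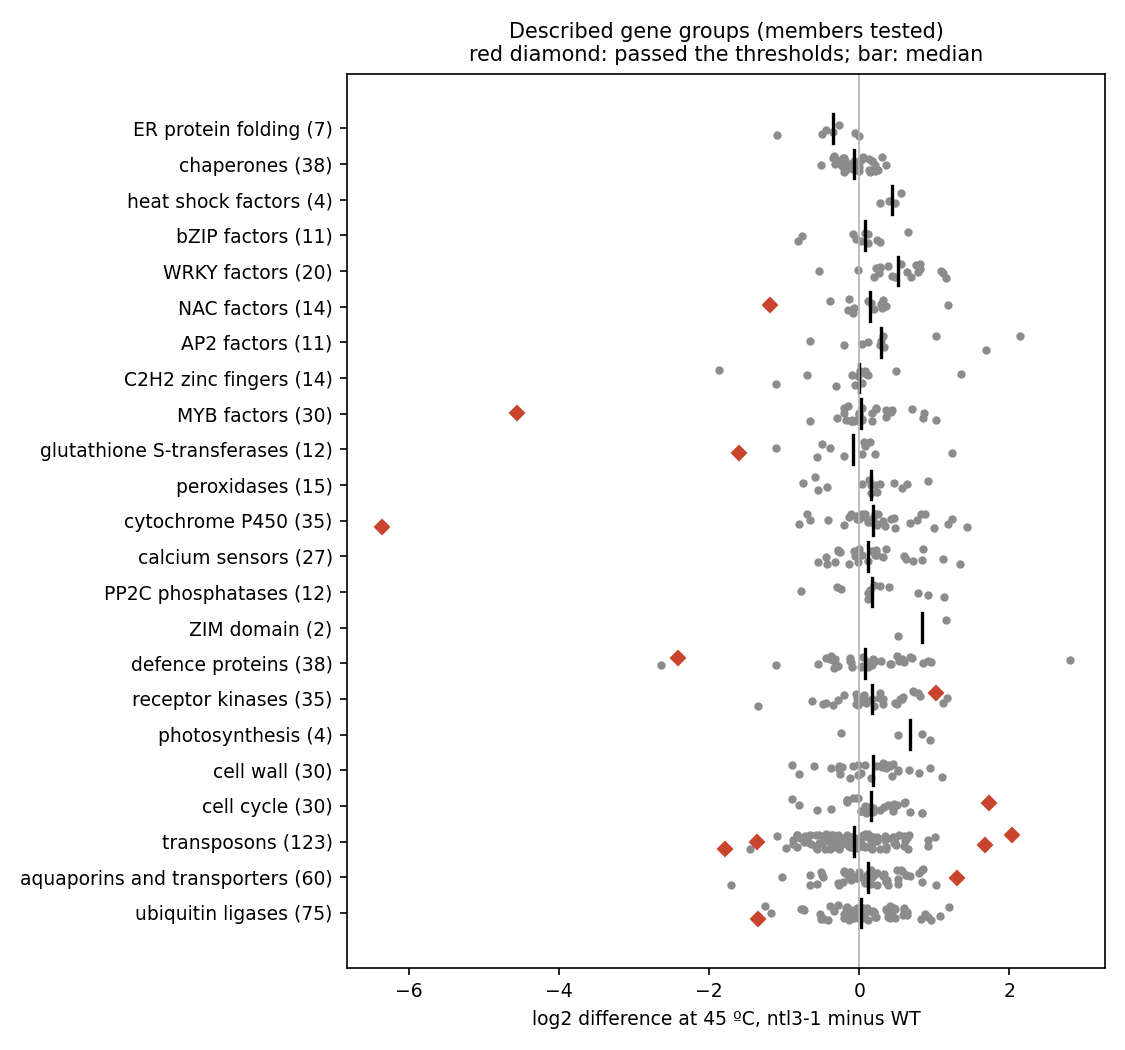
Log2 difference at 45 ºC, *ntl3-1* minus WT (x axis), of every tested member of 23 described gene groups (y axis, with the number of members). Grey points did not pass the thresholds, red diamonds did, and the black bars are medians. The chaperones lie within -0.51 to 0.36, while a single P450 gene stands far to the left (-6.36). The lowest MYB gene is listed at 0 in *ntl3-1*, so its place (-4.56) is set by the constant.

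The 278 higher and 81 lower genes at 45 ºC are described next. In all 359 the libraries of the genotypes did not overlap, a property shared by 4420 (14%) of the genes tested. Without the fold threshold 375 genes were higher and 137 lower, and the unadjusted p was 0.05 or less for 4446 genes. Many of the called genes were of low abundance, with 124 of the 278 higher and 38 of the 81 lower genes averaging under 1 FPKM at 45 ºC. Among the genes above 1 FPKM in all 12 libraries, 62 were higher and 25 were lower. The counts changed with the libraries fitted and with the constant. Fitting only the 6 libraries at 45 ºC called 110 higher and 28 lower genes, and a constant of 1 FPKM called 146 and 39. Of the 40 called genes named here and followed under the alternatives, 22 lost the call in the fit of the 6 libraries alone. Among these are OsNTL3, both Dicer genes, the ATPase, GSTU6, IAA31, nitrate reductase and LOC_Os02g39930. LOC_Os01g72910, LOC_Os01g53650, LOC_Os04g41960, LOC_Os02g52010, LOC_Os11g28184, LOC_Os09g23570 and LOC_Os06g17480 lost it there as well. The call was kept by LOC_Os01g43750, SFT2, LOC_Os03g53070, LOC_Os08g39440 and LOC_Os04g32030.

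For the genes lower in *ntl3-1*, the median log2 difference between genotypes was -1.65 at 45 ºC and -0.27 at 29 ºC, in libraries that the comparisons at 45 ºC and 29 ºC do not share. The call itself makes every difference at 45 ºC 1 or more in size. Some of these genes, such as LOC_Os10g20660, were listed at 0 in both genotypes at 29 ºC, where no difference could be measured. At 29 ºC 18 of the 81 (22.2%) were called lower as well, which is 28.1% of the 64 genes lower there, against 0.202% of all genes tested. A log2 difference of the same sign at 29 ºC was seen in 54 of the 81, and the share over all genes tested was not counted. The change with heat stress was read from the same libraries at 45 ºC that chose these genes, so it is given only as a description. Of the 81 genes, 43 were up-regulated with heat stress in WT and 10 in *ntl3-1*, with medians of 1.09 and -0.00. Over all genes tested 13.2% were up-regulated in WT and 12.9% in *ntl3-1*.

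The largest difference of a described gene was that of LOC_Os01g43750 on chromosome 1, described as cytochrome P450 72A1, a member of a family of oxidizing enzymes. It was measured at 10.7, 20.9 and 21.1 FPKM in WT and at 0.113, 0.0734 and 0.138 FPKM in *ntl3-1* at 45 ºC. The WT mean was 162 times that of *ntl3-1*, and the log2 difference was -6.36 (SE 0.37, limma adjusted p = 5.14e-06). At 29 ºC the gene stood at 1.03 to 2.39 FPKM in WT and at 0.560 to 1.06 FPKM in *ntl3-1* (log2 difference -1.12, limma adjusted p = 0.18). Its level was therefore higher at 45 ºC than at 29 ºC in WT and lower at 45 ºC than at 29 ºC in *ntl3-1*. The interaction of -5.24 (SE 0.52, limma adjusted p = 0.0023) passed in all 20 alternatives. The remaining 34 described P450 genes held 0 called genes, and the group median was 0.18 (limma, 9 members higher and 2 lower at an unadjusted p under 0.05, this gene included). LOC_Os01g43720, a nearby locus number chosen after the values were seen and described only by an identifier, went the same way at a low level. It was measured at 0.861, 0.983 and 1.10 FPKM in WT and at 0.0666, 0.0323 and 0 FPKM in *ntl3-1* (limma adjusted p = 0.000975), and with a constant of 1 FPKM its difference was -0.94, under the fold threshold.

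A pair of genes described as Dicer proteins were lower as well. Dicer proteins cut double-stranded RNA into small RNAs that silence transcripts, and viruses or transposons are among their targets. LOC_Os09g14610, described as DCL2, was measured at 27.7, 43.0 and 38.6 FPKM in WT and at 10.5, 11.7 and 12.9 FPKM in *ntl3-1* at 45 ºC. Its log2 difference was -1.61 (SE 0.18, limma adjusted p = 0.000807), beside -0.25 at 29 ºC (interaction -1.36, limma adjusted p = 0.0782). LOC_Os03g38740, also described as a Dicer, was measured at 24.5, 35.6 and 34.5 FPKM in WT and at 10.8, 13.5 and 15.8 FPKM in *ntl3-1*. Its log2 difference was -1.23 (SE 0.18, limma adjusted p = 0.0054), beside -0.34 at 29 ºC. The *ntl3-1* libraries were all below those of WT for both genes. How reads of similar sequence were divided between these family members was not tested, so their values may not be independent of each other. Both calls were lost in a fit of the 6 libraries alone (limma adjusted p = 0.0541 and 0.149).

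LOC_Os05g44310, a vesicle-fusing ATPase of the kind that takes apart SNARE complexes after membranes have fused, was measured at 77.1, 103 and 112 FPKM in WT and at 35.7, 34.8 and 40.1 FPKM in *ntl3-1*. Its log2 difference was -1.39 (SE 0.13, limma adjusted p = 0.0002) at 45 ºC and -0.26 (SE 0.13) at 29 ºC. LOC_Os06g19620 is described as SFT2, a protein that in yeast acts in transport to the Golgi apparatus. It was measured at 22.6, 21.4 and 20.5 FPKM in WT and at 8.47, 9.99 and 9.19 FPKM in *ntl3-1* (-1.22, SE 0.13, limma adjusted p = 0.000579), and at 9.13 to 11.4 and 9.37 to 13.1 FPKM at 29 ºC. The *ntl3-1* level at 45 ºC was thus within the range of the libraries at 29 ºC or just under it. The interaction was -1.13 (limma adjusted p = 0.0403) for the ATPase and -1.35 (limma adjusted p = 0.0182) for SFT2, and it passed in 4 and 16 of 20 alternatives. The call of the ATPase at 45 ºC was lost with the 6 libraries alone (limma adjusted p = 0.0511).

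Both called genes with a DUF803 domain, a domain named without a function in the supplement, lie on chromosome 1. LOC_Os01g65986 was measured at 27.6, 37.2 and 42.3 FPKM in WT and at 16.2, 14.9 and 15.4 FPKM in *ntl3-1*, a log2 difference of -1.18 (SE 0.13, limma adjusted p = 0.000796). LOC_Os01g65310 was measured at 23.2, 28.4 and 30.4 FPKM in WT and at 11.3, 12.7 and 13.3 FPKM in *ntl3-1*, a log2 difference of -1.13 (SE 0.10, limma adjusted p = 0.000196). At 29 ºC the differences were -0.02 and 0.01, with levels of 10.3 to 11.5 FPKM for LOC_Os01g65986 and 7.67 to 8.21 FPKM for LOC_Os01g65310 over both genotypes. The interactions were -1.15 (limma adjusted p = 0.0394) and -1.14 (limma adjusted p = 0.0127), of which the second passed in all 20 alternatives and the first in 6. The call of LOC_Os01g65986 at 45 ºC was lost with the 6 libraries alone (limma adjusted p = 0.0938), and that of LOC_Os01g65310 held in all 21 alternatives.

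The lower gene LOC_Os01g72910 is described as abscisic stress-ripening, a family of small hydrophilic plant proteins that accumulate under water stress. Its libraries gave 223, 367 and 458 FPKM in WT and 113, 101 and 105 FPKM in *ntl3-1* at 45 ºC, after 1.75 to 2.29 and 2.07 to 5.07 FPKM at 29 ºC. The log2 difference of -1.65 (SE 0.32, limma adjusted p = 0.0314) was lost when any of 7 single libraries was left out, namely WT 1 or 2 at 29 ºC, WT 2 or 3 at 45 ºC or any of the 3 *ntl3-1* libraries at 45 ºC (limma adjusted p = 0.053 to 0.0896). The glutathione S-transferase gene GSTU6 (LOC_Os10g38600), of a family that couples glutathione to toxic compounds, was measured at 7.38, 6.98 and 9.55 FPKM in WT and at 2.91, 2.85 and 1.96 FPKM in *ntl3-1* (-1.60, SE 0.20, limma adjusted p = 0.00189). Its call was lost with the 6 libraries alone (limma adjusted p = 0.0767). It was the only called member of 12 described glutathione S-transferases, whose median was -0.08. The thaumatin family gene LOC_Os11g47670, of a family of defence proteins, was at 0.535, 0.357 and 0.425 FPKM in WT and listed at 0 in all 3 *ntl3-1* libraries. It was the only called gene of 38 found by a word search for defence terms (limma, 5 members higher and 5 lower at an unadjusted p under 0.05, this gene included). Of these, 4 matched only through the word methionine and are not defence genes, and the other 34 had a median log2 difference of 0.07. The fitted difference of the thaumatin gene depends on the constant, and its call was lost with a constant of 1 FPKM (-0.52). LOC_Os08g04210, a cysteine-rich repeat secretory protein chosen after the values were seen, was measured at 1.93, 1.2 and 1.31 FPKM in WT and at 0.215, 0.314 and 0.343 FPKM in *ntl3-1* (limma adjusted p = 0.00825). Its call was lost with the 6 libraries alone (limma adjusted p = 0.0717) and with a constant of 1 FPKM (-0.93).

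The MYB gene LOC_Os03g14810 stood lower at 45 ºC than at 29 ºC in both genotypes. It is described as DIVARICATA, a factor known from flower shape in snapdragon. WT libraries held 3.36, 1.74 and 1.97 FPKM at 45 ºC, and the gene was listed at 0 in all 3 *ntl3-1* libraries. At 29 ºC it stood at 15.0, 15.4 and 19.3 FPKM in WT and at 4.53, 5.39 and 7.74 FPKM in *ntl3-1*, a log2 difference of -1.5 (SE 0.26, limma adjusted p = 0.0119). It was therefore lower in *ntl3-1* at both temperatures, and no fold is given against the zeros at 45 ºC. The other 29 MYB genes held 0 called genes (limma, 3 members of the group higher and 1 lower, this gene, at an unadjusted p under 0.05).

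**Figure D3:**
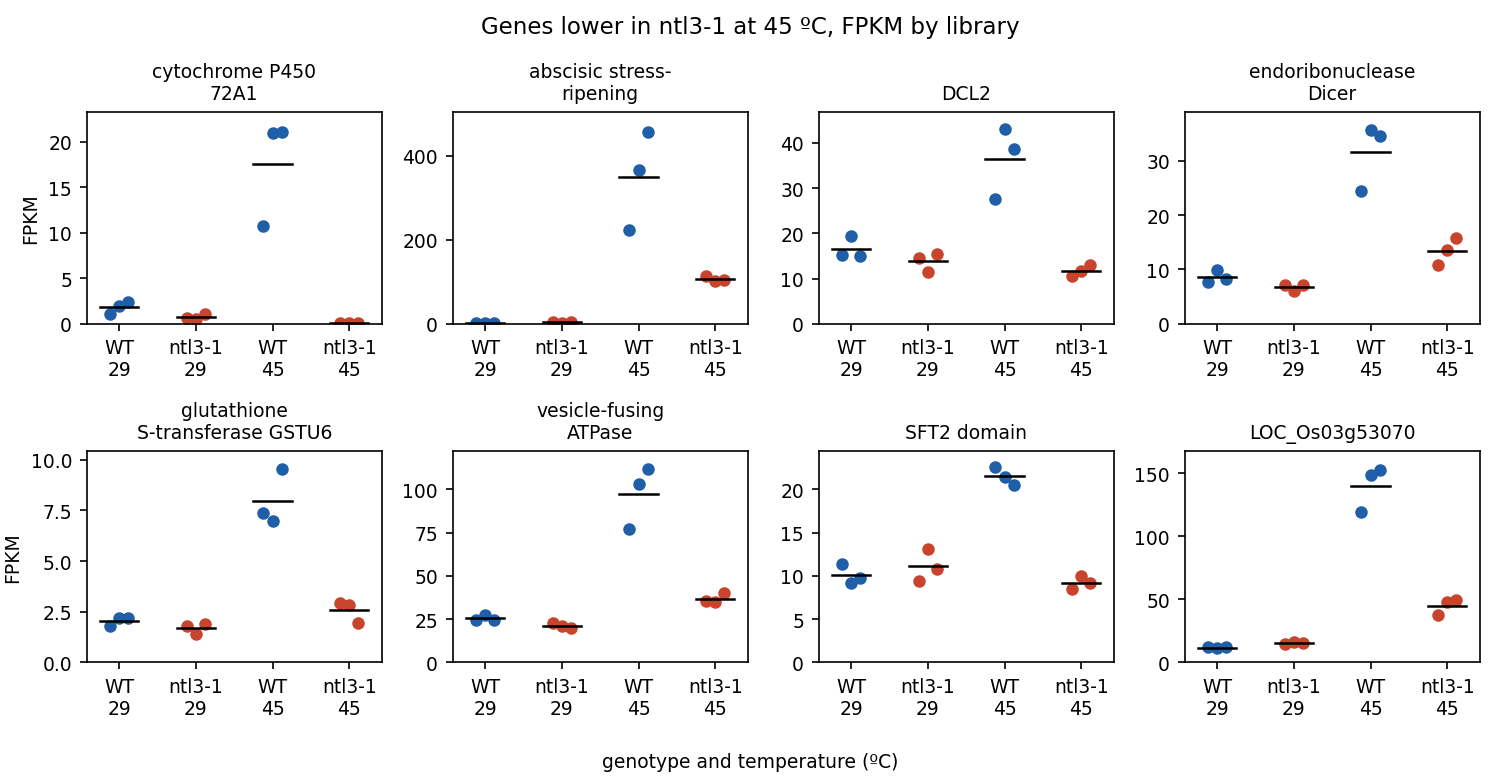
FPKM (y axis, from 0) of 8 genes lower in *ntl3-1* than in WT at 45 ºC, in each library by genotype and temperature (x axis). Points are libraries and bars are means of 3, with WT in blue and *ntl3-1* in red. In all 8 panels the WT libraries at 45 ºC lie above those of the other 3 groups, as for SFT2 with 20.5 to 22.6 against 8.47 to 13.1 FPKM.

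The most abundant lower gene carries no product name in the sources used here. LOC_Os02g39930 was measured at 1045, 1257 and 1560 FPKM in WT and at 709, 544 and 553 FPKM in *ntl3-1* at 45 ºC, and at 48.6 to 64.2 and 75.5 to 81.3 FPKM at 29 ºC. Its log2 difference was -1.09 (SE 0.16, limma adjusted p = 0.00758) at 45 ºC and 0.44 at 29 ºC. Without the third WT library at 45 ºC it fell to -0.94, under the fold threshold, with a limma adjusted p of 0.0185. LOC_Os03g53070 was measured at 119, 149 and 153 FPKM in WT and at 37.7, 48.1 and 49.5 FPKM in *ntl3-1* at 45 ºC, a log2 difference of -1.63 (SE 0.12, limma adjusted p = 4.24e-05). At 29 ºC the direction was the opposite, with 11.1 to 12.5 and 15.0 to 16.6 FPKM (0.40, limma adjusted p = 0.141). Its interaction of -2.04 (limma adjusted p = 0.000784) passed in all 20 alternatives. These genes without a name were chosen after their values were seen.

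Many genes higher in *ntl3-1* at 45 ºC were also higher at 29 ºC. Of the 278, 134 (48.2%) were also called higher at 29 ºC, which is 23.7% of the 566 genes higher there, against 1.79% of all genes tested. A log2 difference of the same sign was seen in 232 (83.5%), and the share over all genes tested was not counted. At 29 ºC 2 genes were called in the opposite direction, and the median was 1.91 at 45 ºC and 1.2 at 29 ºC. The change with heat stress was again read from the libraries that chose these genes, so it is only a description. Of the 278, 40 were up-regulated and 40 down-regulated in WT, and 105 and 21 in *ntl3-1*, with medians of 0.00 and 0.61. Over all genes tested 13.2% were up-regulated in WT and 12.9% in *ntl3-1*.

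The interaction test asks whether the genotype difference itself differed between the temperatures. Among the called genes, 20 of the 278 higher and 21 of the 81 lower ones passed it with a larger difference at 45 ºC. The libraries that chose the genes also enter this test, so nothing is read from these shares. Some genes in both directions, such as LOC_Os10g20660 among the lower ones, were listed at 0 in every library outside the group where they are high. They could pass the filter only through that group. For 126 of the 278 and 43 of the 81 neither a call at 29 ºC nor the interaction was passed, so that they cannot be placed. The interaction counts depended on single libraries. The 20 became 11 without any of the WT libraries at 29 ºC, and 10 without the first or the third *ntl3-1* library there. The 21 became 11 without WT 2 or *ntl3-1* 3 at 29 ºC, 12 without *ntl3-1* 1 at 29 ºC or *ntl3-1* 2 at 45 ºC, and 13 without WT 1 or 3 at 29 ºC or WT 3 at 45 ºC.

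**Figure D4:**
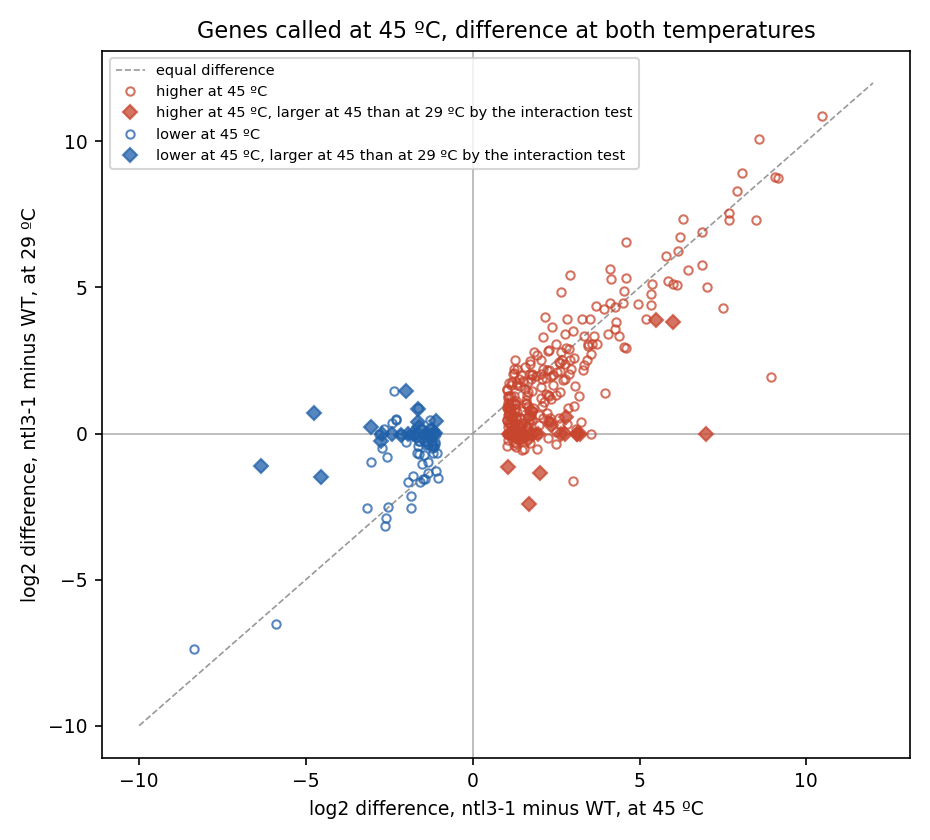
Log2 difference between *ntl3-1* and WT at 45 ºC (x axis) and at 29 ºC (y axis) for the 278 genes higher (red) and 81 genes lower (blue) at 45 ºC. Filled diamonds mark the 20 and 21 genes whose difference was larger at 45 ºC by the interaction test, and the dashed line marks equal differences. Some diamonds in both directions are genes listed at 0 outside the group where they are high. The higher genes spread along the dashed line, with a median of 1.2 at 29 ºC, and most lower genes lie near 0 at 29 ºC, with a median of -0.27. Some genes lie at 0 there because both genotypes were listed at 0, and the call sets how near to 0 a gene can lie at 45 ºC.

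The higher genes with a description and a mean of at least 5 FPKM numbered 6. LOC_Os02g53130 is described as nitrate reductase, the enzyme that turns nitrate into nitrite. Its level was 14.1, 13.4 and 17.1 FPKM in WT and 29.3, 35.2 and 44.6 FPKM in *ntl3-1* (1.27, SE 0.25, limma adjusted p = 0.0338). The difference was 2.53 at 29 ºC, where all *ntl3-1* libraries (3.69 to 7.97 FPKM) also lay above all WT libraries (0.759 to 0.939 FPKM). The NADP-dependent oxidoreductase gene LOC_Os04g41960 was measured at 64.1, 56.5 and 55.8 FPKM in WT and at 133, 108 and 186 FPKM in *ntl3-1* (1.24, SE 0.24, limma adjusted p = 0.0336), beside 2.20 at 29 ºC. The gene with a phosphate-induced protein 1 domain, LOC_Os02g52010, was measured at 16.1, 11.9 and 13 FPKM in WT and at 27.1, 33.7 and 44.4 FPKM in *ntl3-1* (1.33, SE 0.23, limma adjusted p = 0.0163), beside 1.67 at 29 ºC. These 3 genes were called at both temperatures, and their calls at 45 ºC rested on single libraries. The nitrate reductase call was lost without any of 8 libraries (all but WT 3 and *ntl3-1* 1 at 45 ºC and *ntl3-1* 1 and 3 at 29 ºC, limma adjusted p = 0.0527 to 0.111). The oxidoreductase call was lost without any of 7 (the 3 WT and *ntl3-1* 1 and 3 at 45 ºC, WT 1 and *ntl3-1* 2 at 29 ºC, limma adjusted p = 0.0509 to 0.0958), and that of LOC_Os02g52010 without WT 2 or *ntl3-1* 3 at 45 ºC (limma adjusted p = 0.0539 to 0.0551).

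IAA31 (LOC_Os12g40900), an Aux/IAA repressor of auxin responses, was measured at 8.05, 9.25 and 6.15 FPKM in WT and at 20.7, 15.7 and 21.4 FPKM in *ntl3-1* at 45 ºC. The log2 difference was 1.30 (SE 0.17, limma adjusted p = 0.00265), and it was 0.57 (limma adjusted p = 0.134) at 29 ºC. The call was lost with the 6 libraries alone (limma adjusted p = 0.114). LOC_Os01g53650, a CCCH zinc finger gene of a family that often binds RNA, was listed at 0 in all 6 libraries at 29 ºC. At 45 ºC it was measured at 8.16, 6.46 and 8.61 FPKM in WT and at 14.1, 18 and 17 FPKM in *ntl3-1* (1.07, SE 0.18, limma adjusted p = 0.0155). The call of LOC_Os01g53650 was lost in 7 of 21 alternatives, among them the fit of the 6 libraries alone. It was also lost without WT 2 or without *ntl3-1* 2 or 3 at 45 ºC (limma adjusted p = 0.0509 to 0.0631). The libraries at 29 ºC, all at 0, add no spread to the estimate for this gene. The amino acid transporter gene LOC_Os04g47420 was measured at 1.57, 1.24 and 0.978 FPKM in WT and at 3.15, 3.21 and 3.26 FPKM in *ntl3-1* (1.30, limma adjusted p = 0.00259), the only called gene of 60 described aquaporins and transporters. That call was lost with the 6 libraries alone (limma adjusted p = 0.114) and with a constant of 1 FPKM (0.90). The receptor kinase gene LOC_Os09g23570 (1.02, limma adjusted p = 0.0491), the only called gene of 35 receptor kinases and lectins, lost its call without any of 9 libraries, that is all but WT 3 at 45 ºC and *ntl3-1* 1 and 3 at 29 ºC (limma adjusted p = 0.0608 to 0.14). The histone-like gene LOC_Os06g17480 (1.73, limma adjusted p = 0.0494) was the only called gene of the 30 described cell cycle and chromatin genes. Its call was lost without any of 10 libraries, all but *ntl3-1* 1 and 3 at 29 ºC (limma adjusted p = 0.0588 to 0.133).

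Of 123 genes described as transposon proteins, 2 (1.63%) were higher and 2 (1.63%) were lower, beside 0.992% and 0.794% of all described genes, with a median of -0.07. LOC_Os08g03880, described as a retrotransposon protein, was the described gene with the largest difference among these 6 higher genes. It stood at 21.6, 23.5 and 33.3 FPKM in WT and at 83.4, 93.3 and 72.7 FPKM in *ntl3-1* at 45 ºC (1.68, SE 0.18, limma adjusted p = 0.000579), and at 0.442 to 0.956 FPKM in both genotypes at 29 ºC, and its call was lost with the 6 libraries alone (limma adjusted p = 0.0517). The retrotransposon gene LOC_Os10g20660 was at 0.203, 0.246 and 0.295 FPKM in WT at 45 ºC and listed at 0 in the other 9 libraries, and its call was lost with a constant of 1 FPKM (-0.32). The Mariner gene LOC_Os11g28184, chosen after the values were seen, was measured at 0.193, 0.488 and 0.712 FPKM in WT and at 1.92, 1.73 and 2.49 FPKM in *ntl3-1* at 45 ºC (2.03, SE 0.36, limma adjusted p = 0.0174). At 29 ºC the genotypes stood the other way round, with 1.11 to 1.94 FPKM in WT and 0.472 to 0.588 FPKM in *ntl3-1* (-1.35, limma adjusted p = 0.0855). Its call at 45 ºC was lost without *ntl3-1* 1 or 3 at 45 ºC (limma adjusted p = 0.052 to 0.0647). LOC_Os06g11830 and LOC_Os07g15340, also chosen after the values were seen, carry the hAT dimerisation domain found in transposases. They were measured at 0.529, 0.556 and 0.560 FPKM and at 0.258, 0.457 and 0.313 FPKM in WT at 45 ºC. In *ntl3-1* they stood at 3.05, 2.83 and 3.33 FPKM and at 2.20, 2.36 and 2.52 FPKM. Both were called higher at 45 ºC (2.29 and 2.5, limma adjusted p = 1.26e-05 and 3.6e-05) and at 29 ºC (1.28 and 1.33, limma adjusted p = 0.00103 and 0.00353). Reads shared between similar copies of such elements were not separated here.

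Further genes without a product name differed between the genotypes mainly at 45 ºC. LOC_Os08g39440 was measured at 21.1, 19.5 and 26.0 FPKM in WT and at 135, 110 and 96.1 FPKM in *ntl3-1* at 45 ºC, a log2 difference of 2.35 (SE 0.14, limma adjusted p = 7.56e-06). At 29 ºC it stood at 12.4 to 15.7 and 16.4 to 17.8 FPKM (0.30, limma adjusted p = 0.403). LOC_Os04g32030 was measured at 115, 106 and 130 FPKM in WT and at 459, 331 and 331 FPKM in *ntl3-1* at 45 ºC, a log2 difference of 1.66 (SE 0.13, limma adjusted p = 6.19e-05). At 29 ºC it stood at 45.6 to 48.1 and 38.8 to 45.2 FPKM (-0.19, limma adjusted p = 0.618). The interactions of 2.05 (limma adjusted p = 0.00229) and 1.85 (limma adjusted p = 0.0023) passed in all 20 alternatives. These loci were chosen after their values were seen.

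**Figure D5:**
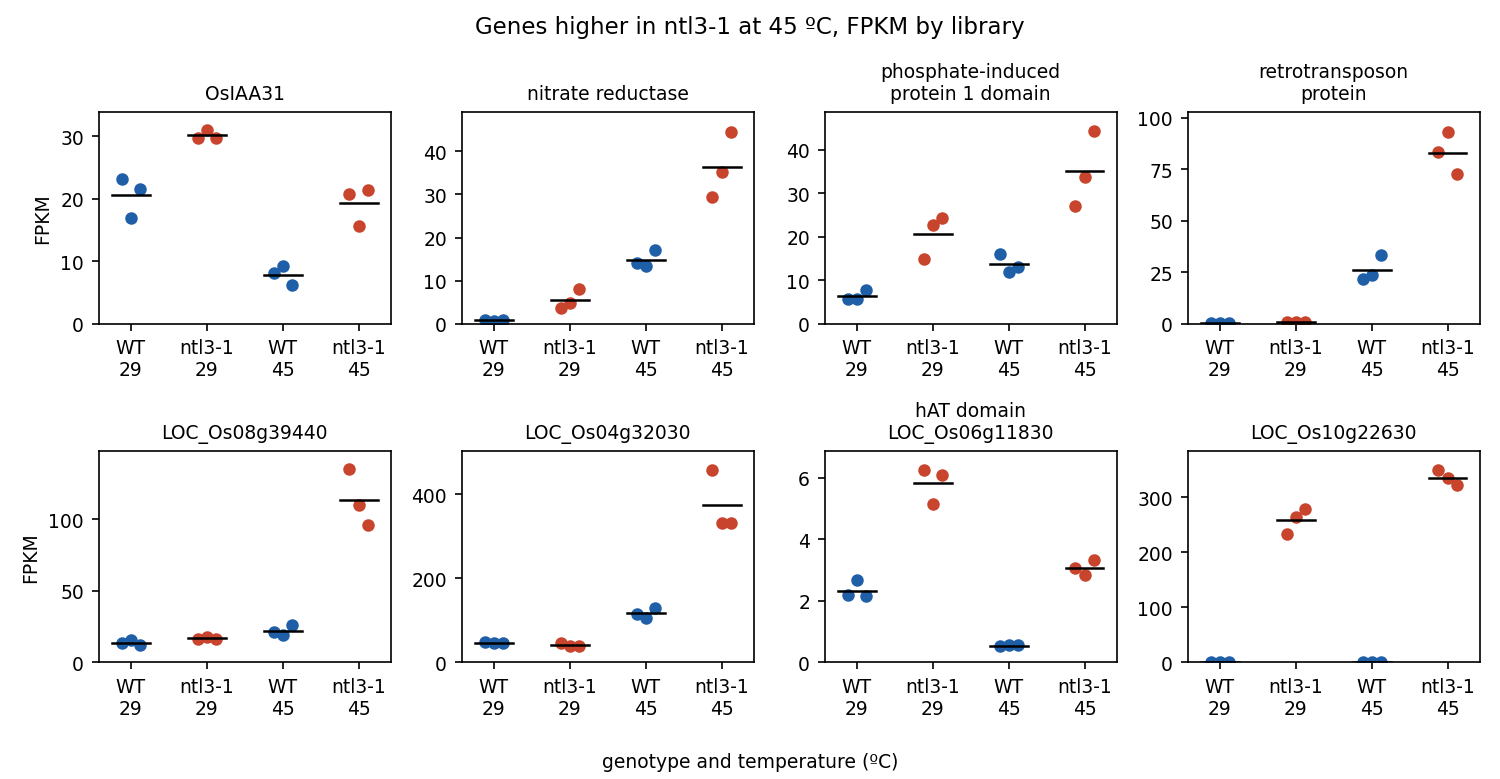
FPKM (y axis, from 0) of 8 genes called higher at 45 ºC, in each library by genotype and temperature (x axis). Points are libraries and bars are means of 3, with WT in blue and *ntl3-1* in red. Nitrate reductase, the phosphate-induced protein 1 gene, the hAT gene and LOC_Os10g22630 are higher in *ntl3-1* at both temperatures, while LOC_Os08g39440 reaches 96.1 to 135 FPKM only in *ntl3-1* at 45 ºC.

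The largest differences belonged to genes at or near 0 in WT or in *ntl3-1* at both temperatures. LOC_Os10g22630 was measured at 349, 335 and 323 FPKM in *ntl3-1* at 45 ºC and at 0.225, 0 and 0.319 FPKM in WT. At 29 ºC it stood at 234 to 279 FPKM in *ntl3-1* and at or below 0.0831 FPKM in WT. LOC_Os07g06834 was measured at 117, 119 and 92.7 FPKM in *ntl3-1* and at 0.0597, 0 and 0.332 FPKM in WT at 45 ºC, with 102 to 107 and 0.127 to 0.164 FPKM at 29 ºC. In all, 18 genes were listed at 0 in all 6 WT libraries and above 0.5 FPKM in all 6 *ntl3-1* libraries, and 2 genes showed the reverse. LOC_Os07g05840 was at 18.9, 19.9 and 22.5 FPKM and LOC_Os01g63393 at 9.99, 5.59 and 8.45 FPKM in *ntl3-1* at 45 ºC, and both were listed at 0 in WT. LOC_Os10g20480 was at 33.7, 27.6 and 37.7 FPKM and LOC_Os10g16440 at 5.35, 6.45 and 5.99 FPKM in WT at 45 ºC, and both were listed at 0 in all 6 *ntl3-1* libraries. No product name for these 6 genes was at hand. A value of 0 in a table without counts can be a failed estimate, so no fold is given against it. With the same minimum of 0.5 FPKM in the other genotype, and over the libraries at 45 ºC alone, 35 genes were listed at 0 in all 3 WT libraries and 8 in all 3 *ntl3-1* libraries. With no minimum, 84 of the 278 higher genes were at 0 in the 3 WT libraries at 45 ºC and 58 in all 6 WT libraries, while 21 of the 81 lower genes were at 0 in the 3 *ntl3-1* libraries at 45 ºC and 12 in all 6.

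The called genes were spread over all 12 chromosomes, as read from the locus names. Chromosome 1, which carries OsNTL3, held 20 of the 81 lower genes (24.7%) and 14.4% of the genes tested. For the higher genes the shares were 12.6% on chromosome 1, 10.4% on chromosome 12 with 6.12% of the genes tested, and 10.8% on chromosome 7 with 7.67%. Only a single run of 3 neighbouring tested loci was called in the same direction, LOC_Os02g58360 to LOC_Os02g58380, all higher in *ntl3-1*. Within it, LOC_Os02g58370 was measured at 0.133, 0.0617 and 0 FPKM in WT and at 1.26, 2.39 and 1.39 FPKM in *ntl3-1* at 45 ºC, and LOC_Os02g58360 at 0.195, 0.193 and 0.419 and at 1.31, 1.33 and 1.63 FPKM. The levels of these loci were low in every library at 45 ºC. Of 75 described ubiquitin ligase genes 1 was lower, LOC_Os04g22240 with a C3HC4 zinc finger, at 0.173, 0.240 and 0.256 FPKM in WT and 0.0290, 0.0562 and 0 FPKM in *ntl3-1*, and its call was lost with a constant of 1 FPKM, where the log2 difference was -0.25.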

How the data were processed

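The values are FPKM as deposited by the authors, for 55986 genes in 12 libraries. According to the methods of the study, reads were filtered (SeqPrep, Sickle), mapped by TopHat on the MSU rice genome, and FPKM were then obtained with RSEM. The submitters' processing notes name Bowtie 0.12.2 and a mouse genome build instead, and the deposited design names another sequencer model than the methods, so which program made the table is not settled. Without read counts, no count-based test was run and depth is unknown.

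The members and gene lists were chosen with earlier results of these data known. Genes above 0 FPKM in at least 3 of 12 libraries (31681) were transformed to log2(FPKM + 0.1). The 4 group means were estimated from all 12 libraries in limma 3.58.1 (R 4.3.3), with variances that follow the mean, so libraries at 29 ºC add to the estimate of the spread. P-values are two-sided and Benjamini-Hochberg adjusted over all genes tested. Calls needed an adjusted p of at most 0.05 and a log2 difference of at least 1 in size. The interaction had no fold threshold. The fit was tested on simulated data.

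Genes were named where the study names them, and where they were among the 10 largest described or the 2 largest of all called genes in a direction with a mean of at least 5 FPKM and no overlap. In addition, the 2 called members of each group with the smallest adjusted p, and the 2 genes with the highest mean among those in a run or listed at 0, were named. Other names are marked as chosen after the values were seen. Gene groups are word searches on product descriptions in a supplement of the study, with the genes the study names added to their family. The reference gene table matched 0 of the loci, so no coordinates or sequences are given. Labels gave the groups. The alternatives were constants of 1 and 0.01 FPKM, other filters, median-of-ratios and quantile scaling, the 6 libraries alone, a replicate block, a variance prior without trend, other thresholds and each library left out.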

Additional observations from a re-analysis of the deposited data

Results flagged for a closer look

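The genotype difference of 15 named genes differed between 45 ºC and 29 ºC by the interaction test in limma, with an adjusted p of at most 0.05. For 12 of these the value, the difference at 45 ºC minus that at 29 ºC, was below 0. It was -5.24 for the P450 gene LOC_Os01g43750, -3.27 for LOC_Os01g43720, -3.06 for the MYB gene LOC_Os03g14810, -2.39 for the thaumatin gene LOC_Os11g47670 and -2.04 for LOC_Os03g53070. The retrotransposon gene LOC_Os10g20660 had -1.79, LOC_Os02g39930 had -1.53 and the SFT2 gene LOC_Os06g19620 had -1.35. The DUF803 genes LOC_Os01g65986 and LOC_Os01g65310 had -1.15 and -1.14, the vesicle-fusing ATPase LOC_Os05g44310 had -1.13 and OsbZIP74 (LOC_Os06g41770) had -0.98. Above 0 were the Mariner gene LOC_Os11g28184 with 3.38, LOC_Os08g39440 with 2.05 and LOC_Os04g32030 with 1.85. The interaction passed in all alternatives tried for LOC_Os01g43750, LOC_Os01g65310, LOC_Os03g53070, LOC_Os04g32030 and LOC_Os08g39440. It also passed in all of them for LOC_Os10g20660, but that gene was above 0 only in the heated WT libraries. LOC_Os10g20660 could pass the filter only through that group, so nothing is read from its passes. Where libraries are listed at 0 the size is set by the constant. Over the alternatives it ran from -4.67 to -0.32 for LOC_Os10g20660, from -5.42 to -0.52 for LOC_Os11g47670 and from -6.31 to -0.35 for LOC_Os03g14810. The interaction passed in 19 of 20 for LOC_Os03g14810 (all but a constant of 1 FPKM, where it was -0.35) and in 4 to 16 of 19 or 20 for the others.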

How the results depend on the processing

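The counts of genes higher and lower at 45 ºC (278 and 81) became 146 and 39 with a constant of 1 FPKM, 110 and 28 with only the 6 libraries at 45 ºC, and 158 and 47 under the stricter limit of 0.01 on the adjusted p. Dropping the fold threshold gave 137 lower genes. In genes above 1 FPKM in all 12 libraries, an alternative added after seeing the data, 62 were higher and 25 lower. The counts also called at 29 ºC (134 and 18) became 82 and 10 with a constant of 1 FPKM, and 11 were lower under the limit of 0.01. The counts with an interaction (20 and 21) became 13 and 12 with a constant of 1 FPKM, 6 and 10 with a filter at 1 FPKM in at least 3 libraries, 11 and 12 with the replicate block, and 8 and 7 under the limit of 0.01. With each library left out in turn, the counts ranged from 233 to 279 higher and 69 to 105 lower, 111 to 143 and 14 to 18 also called at 29 ºC, and 10 to 19 and 11 to 22 with an interaction. The cause of these shifts was not tested. Of the 278 and 81 genes, 107 and 25 were shared with the calls of the 6 libraries alone.

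The replicate numbers did not pair the libraries. Residuals of the 18 same-numbered pairs correlated between -0.11 and 0.0924, and 2 of the 6 libraries at 45 ºC were closest to their own number in the other genotype. The replicate block gave 268 higher and 72 lower genes, 150 and 19 of them also called at 29 ºC, and it removed the calls of LOC_Os06g17480 and LOC_Os09g23570.

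Of 1214 values of 58 named genes under the alternatives, 1103 kept their direction and call, 94 lost the call and 17 changed sign, in genes that were not called. BiP1 (LOC_Os02g02410) was 0.02 after median-of-ratios rescaling. With each library left out in turn it ranged from -0.18 to 0.18, LOC_Os01g62190 from -0.32 to 0.26, LOC_Os01g67054 from -0.43 to 0.02, LOC_Os03g53200 from -0.51 to 0.06, LOC_Os05g34050 from -0.15 to 0.13, LOC_Os07g44950 from -0.22 to 0.13, LOC_Os09g27830 from -0.21 to 0.11 and LOC_Os12g02210 from -0.45 to 0.47. Of 1058 group counts, 986 stayed within 1.5 times. Since depth is unknown, how firmly values under 1 FPKM are measured is not known.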
